A study of Mus musculus with 8 samples.

Results

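Ly6d and its named relatives Lynx1, Ly6a, Ly6c1, Ly6c2, Ly6e, Ly6k and Ly6i were followed in mouse pre-B cells transduced with a control vector or with the microRNA miR-125b, kept with interleukin-7 (IL-7) or for 24 h without it. Members were taken as the probes whose gene name on the arrays is one of these 8 names. Of the 8 names, 7 had a probe, with 9 probes between them, out of 34715 gene names on the arrays. No probe carried the name Ly6c2. Ly6d was chosen on its measured values in these same comparisons, so its levels and differences are given as a description with no test. The relatives were added by family name.

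Line 1676 is a mouse pre-B cell line with the genotype SLP-65-/- LAT-/-, and every group shares that genotype. Retroviral transduction gave control cells and cells expressing hsa-miR-125b-1, and both were selected with puromycin at 1 µg/ml. RNA came from 4 groups, namely control cells with IL-7, miR-125b cells with IL-7, control cells 24 h without IL-7 and miR-125b cells 24 h without IL-7. Each group had 2 arrays, 1 for each of 2 experiments with separately generated clones, so all values concern 1 cell line and few clones. Removal of IL-7 is the step used in this line to let pre-B cells differentiate.

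Proteins of the Ly6 family are small, cysteine-rich molecules with a three-finger fold, and most are held on the outer cell surface by a glycosylphosphatidylinositol (GPI) anchor. Many of the mouse genes lie in a cluster on chromosome 15, and several are known as lineage markers of blood cells. Ly6d marks lymphoid progenitors biased towards the B lineage, and IL-7 is the main growth factor of mouse pro-B and pre-B cells. MiR-125b is a microRNA that represses messages carrying a match to its seed, the bases near its 5′ end.

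The measurements were single-colour hybridisations to 60-base oligonucleotide probes. Sequences are shown for the microRNA and for the 4 members that could be tested, because these fix what each signal reports. The mature microRNA is from the RefSeq mouse entry (GRCm38.p6), 5′ to 3′, with the seed, bases 2 to 8, in capitals. For each probe the first 30 of its 60 bases are given in lower case, as the array files list them.
mmu-miR-125b-5p: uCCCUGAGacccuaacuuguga
Ly6d probe: caggacaggaagatgtggcttgtgtcccag
Lynx1 probe: aggcccccaaactatgcatggacggacacg
Ly6e probe: tatcattgtacccaccttgtactctgttca
Ly6i probe: taaagagccgttcttgccatcctttctgcc

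The files place these 60-base probes on mm9 at chr15:74592551-74592610 for Ly6d, chr15:74578434-74578493 for Lynx1, chr15:74789592-74789651 for Ly6e and chr15:74810484-74810543 for Ly6i. The Ly6e probe lies on the plus strand and the other 3 on the minus strand. Exons and UTRs of that build were not used here. The DNA match to the seed, CTCAGGG, was searched on the probes' own strand. It occurred in 0 of the 9 member probes and in 0.44% of the 55623 probes, and a probe covers only a short piece of its message. The longest run of bases shared by any 2 member probes was 8.

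Between 26590 and 30551 probes an array were well above background, and the 2 arrays of a group correlated at 0.994 to 0.996 over the genes tested. All 4 arrays with IL-7 were on slide 1 and all 4 arrays without IL-7 on slide 2, and the scanner software version differed between the slides. The effect of removing IL-7 and the effect of slide therefore cannot be told apart. Vector and position on the slide cannot be told apart either, since control arrays sat in columns 1 and 2 and miR-125b arrays in columns 3 and 4. All 25 B-lineage genes on a fixed list, among them Pax5 and Ebf1, were well above background on both arrays of every group. Blnk, which encodes SLP-65, had a level of 7.05 to 7.48 over the 8 arrays, and Lat one of 1.36 to 1.86, on the log2 scale defined below. Whether these 2 probes lie in the disrupted parts of the genes was not tested.

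Levels below are log2 values of the processed signal relative to the 75th percentile of the array, so that 0 is the 75th percentile. A gene was called changed at an adjusted p under 0.05 in limma, with Benjamini-Hochberg adjustment over all 20699 genes tested. Of the 8 members, 4 entered the tests, for which some group had to show the probe well above background on each of its arrays: Ly6d, Lynx1, Ly6e and Ly6i.

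The Ly6d probe, which reports the B-lineage surface marker, was well above background on all 8 arrays. Its level was 0.66 and 0.87 in control cells with IL-7, and -1.07 and -0.59 in miR-125b cells with IL-7. Without IL-7 it was 2.41 and 2.83 in control cells, and -0.06 and -0.10 in miR-125b cells. The order from high to low was control without IL-7, control with IL-7, miR-125b without IL-7 and miR-125b with IL-7, and no neighbouring groups in that order overlapped. In a bulk RNA sample, fewer cells with Ly6d and less Ly6d RNA in each cell cannot be told apart.

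With IL-7, Ly6d was 3.02-fold lower in miR-125b cells than in control cells, a log2 difference of -1.60 (SE 0.21, n = 2 against 2). Without IL-7 it was 6.50-fold lower, a log2 difference of -2.70 (SE 0.21). Removal of IL-7 went with a level 3.63-fold higher in control cells (log2 difference 1.86, SE 0.21) and 1.69-fold higher in miR-125b cells (log2 difference 0.75, SE 0.21). The withdrawal response was smaller in miR-125b than in control cells, with a difference of -1.10 (SE 0.29) on the log2 scale. The SE comes from a spread pooled over the 4 groups and moderated by limma towards that of all genes. The SD between the arrays of a group, pooled but not moderated, was 0.24 for Ly6d.

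**Figure D1:**
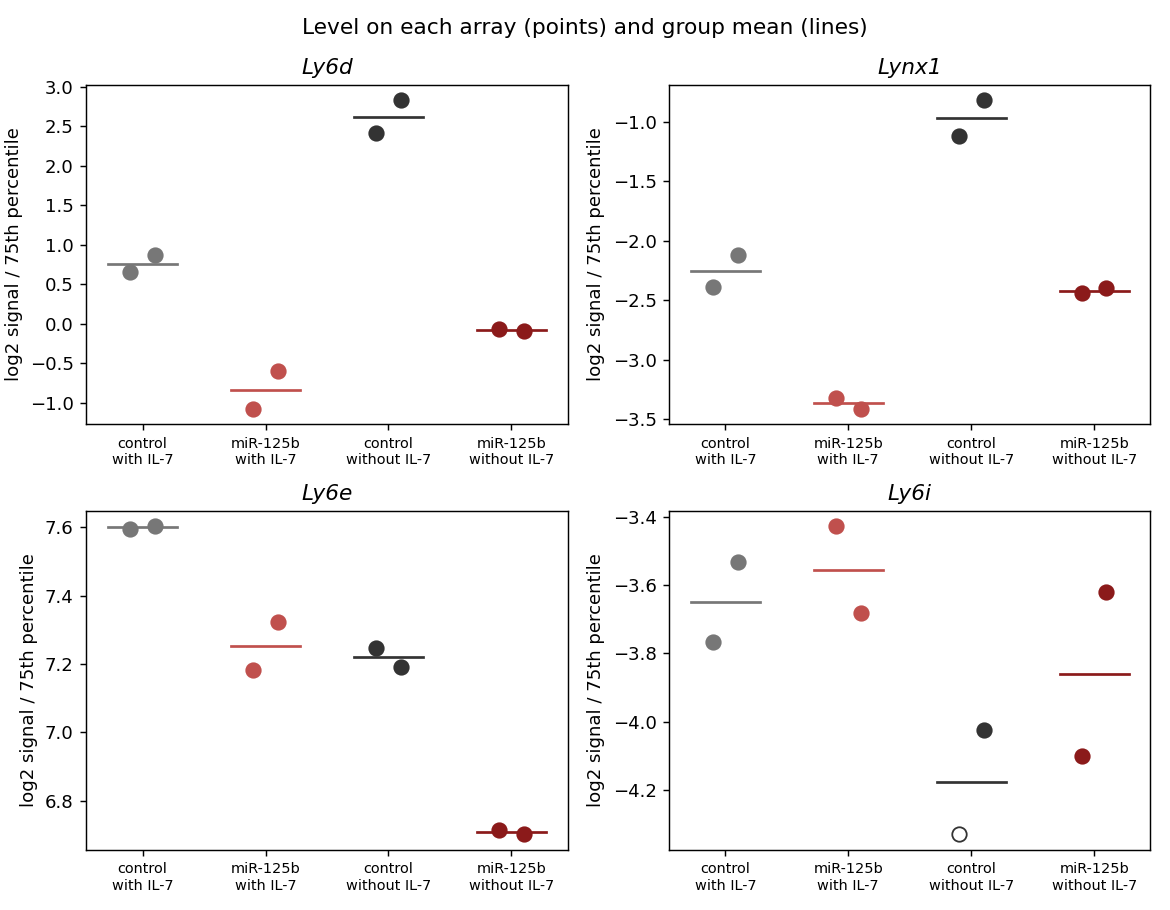
Level of Ly6d, Lynx1, Ly6e and Ly6i on each of the 8 arrays, as log2 signal relative to the array's 75th percentile, with an own scale for each gene. Points are single arrays, lines are group means of 2 arrays, and an open point is an array on which the probe was not well above background. Ly6d spans -1.07 to 2.83 and Lynx1 -3.41 to -0.82, both highest in control cells without IL-7.

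Lynx1 lies next to Ly6d, its probe 14.1 kb away, and encodes a GPI-anchored protein best known for binding nicotinic acetylcholine receptors in neurons. Its level was -2.39 and -2.12 in control cells with IL-7, and -3.32 and -3.41 in miR-125b cells with IL-7. Without IL-7 the level was -1.12 and -0.82 in control cells, and -2.44 and -2.40 in miR-125b cells. Control cells with IL-7 and miR-125b cells without IL-7 lay closest, the first pair just above the second, while the other groups were well separated.

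Lynx1 fell in miR-125b cells in both conditions. With IL-7 the log2 difference was -1.11 (SE 0.14, adjusted p = 0.0304), and without IL-7 it was -1.45 (SE 0.14, adjusted p = 0.0103). It rose on removal of IL-7, by 1.28 in control cells (adjusted p = 0.00168) and by 0.95 in miR-125b cells (adjusted p = 0.00374) on the log2 scale. The response differed between the vectors by -0.33 (SE 0.19), which did not pass the test (adjusted p = 0.948). Normexp with quantile normalization gave -0.53 between vectors with IL-7 and 0.39 for removal of IL-7 in miR-125b cells. The call with IL-7 was lost with median scaling (-1.02, adjusted p = 0.0532) and when any 1 of the 8 arrays was left out, with differences of -1.25 to -0.98. The call without IL-7 was lost when any 1 of the 4 arrays of that condition was left out.

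A second Lynx1 probe, at chr15:74581357-74581416, gave little signal. It was well above background on 1 of 8 arrays, a miR-125b array without IL-7, and was not tested. Its group means ran from -6.30 to -5.06. The 2 probes therefore do not report Lynx1 alike, and the values above rest on the brighter one.

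Ly6e, an interferon-inducible family member present on many blood cells, was well above background on all 8 arrays. Its level was 7.60 on both control arrays with IL-7, and 7.18 and 7.32 on the miR-125b arrays with IL-7. Without IL-7 it was 7.25 and 7.19 in control cells, and 6.72 and 6.70 in miR-125b cells. In each condition both miR-125b arrays lay below both control arrays.

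Ly6e fell in miR-125b cells without IL-7 (log2 difference -0.51, SE 0.08, adjusted p = 0.0256). With IL-7 the difference was -0.35 (SE 0.08) and did not pass the test (adjusted p = 0.0816). The call without IL-7 was lost with each array scaled to its median (difference -0.33, adjusted p = 0.151). It was also lost when any 1 of the 4 arrays without IL-7 was left out, with differences of -0.54 to -0.48.

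The direction of Ly6e on removal of IL-7 depended on how the arrays were scaled. Scaled to the 75th percentile, it was -0.38 in control cells (adjusted p = 0.00915) and -0.54 in miR-125b cells (adjusted p = 0.00354). With quantile normalization it was 0.15 in control cells (adjusted p = 0.18) and -0.0091 in miR-125b cells (adjusted p = 0.937). The processed signal itself was higher without IL-7, at 92072 and 97225 in control cells against 65211 and 63265 with IL-7, while the 75th percentile of the arrays went from 325 to 379 with IL-7 up to 606 to 722 without. No direction is therefore given for Ly6e on withdrawal.

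**Figure D2:**
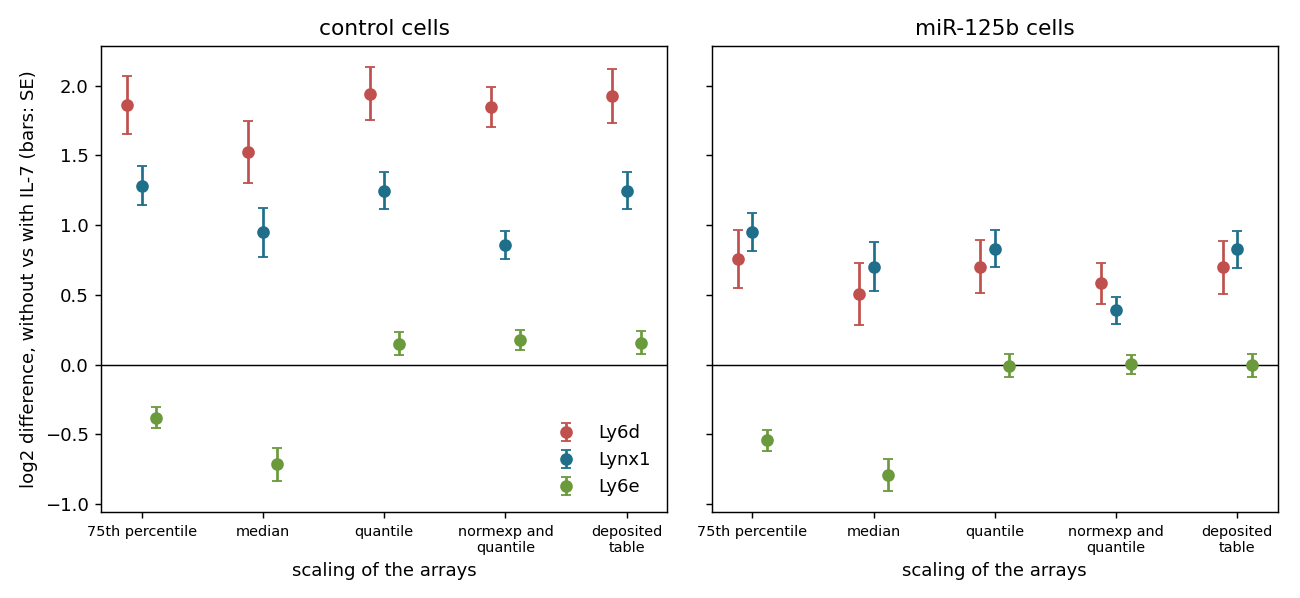
Log2 difference without against with IL-7 for Ly6d, Lynx1 and Ly6e, in control cells and in miR-125b cells, under 5 ways of scaling the arrays, with SE bars. Ly6d and Lynx1 lie above 0 in every case, while Ly6e lies at -0.38 and -0.54 by the 75th percentile and at 0.15 and -0.0091 by quantile normalization.

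Ly6i is a mouse Ly6 gene known from myeloid cells. Its probe was well above background on 7 of 8 arrays, all but 1 control array without IL-7. The level was -3.77 and -3.53 in control cells with IL-7 and -3.43 and -3.68 in miR-125b cells with IL-7. Without IL-7 it was -4.33 and -4.03 in control cells and -4.10 and -3.62 in miR-125b cells.

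The vector groups overlapped for Ly6i in both conditions, and it passed the test in none of the comparisons. The differences between vectors were 0.10 (SE 0.21, adjusted p = 0.828) with IL-7 and 0.32 (adjusted p = 0.395) without. On removal of IL-7 the difference was -0.53 in control cells (adjusted p = 0.0732) and -0.31 in miR-125b cells (adjusted p = 0.253). The first of these passed the test with quantile normalization (-0.81, adjusted p = 0.0391) and with median scaling (-0.86, adjusted p = 0.0131).

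The remaining members gave no level that could be tested. Ly6a encodes Sca-1, a surface marker of blood stem and progenitor cells, and its probe was well above background on 0 of 8 arrays. The same held for Ly6k, a gene known from germ cells. Ly6c1 encodes a form of Ly6C, a marker of monocytes and other leukocytes. One of its probes was well above background on 2 arrays and the other on 1, all of them without IL-7. Mouse Ly6a, Ly6c and Ly6i messages are close copies of each other, so a dim signal on such a probe cannot be assigned to 1 gene with certainty.

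Counted over the relatives of Ly6d, 1 of the 3 tested passed the test for miR-125b against control with IL-7, namely Lynx1, which was lower. In that comparison 2.58% of all genes tested were called, 1.13% higher and 1.45% lower. Without IL-7, 2 of 3 were called, Lynx1 and Ly6e, both lower, against 6.43% of all genes, 2.95% higher and 3.48% lower. With 3 relatives tested these counts describe single genes rather than the family.

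Removal of IL-7 changed 2 of the 3 relatives in control cells and 2 of 3 in miR-125b cells, in each case Lynx1 higher and Ly6e lower, the latter with the 75th percentile or the median as the scale. The shares were 54.2% in control cells (20% higher, 34.1% lower) and 52.4% in miR-125b cells (20.3% higher, 32.1% lower), so a called relative is near the background there. For the difference between the withdrawal responses, 0 of 3 relatives and 0% of all genes were called by limma. At an unadjusted p under 0.05 that comparison held 1217 of 20699 genes. Under the other 9 settings it held 0 to 5 genes called.

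**Figure D3:**
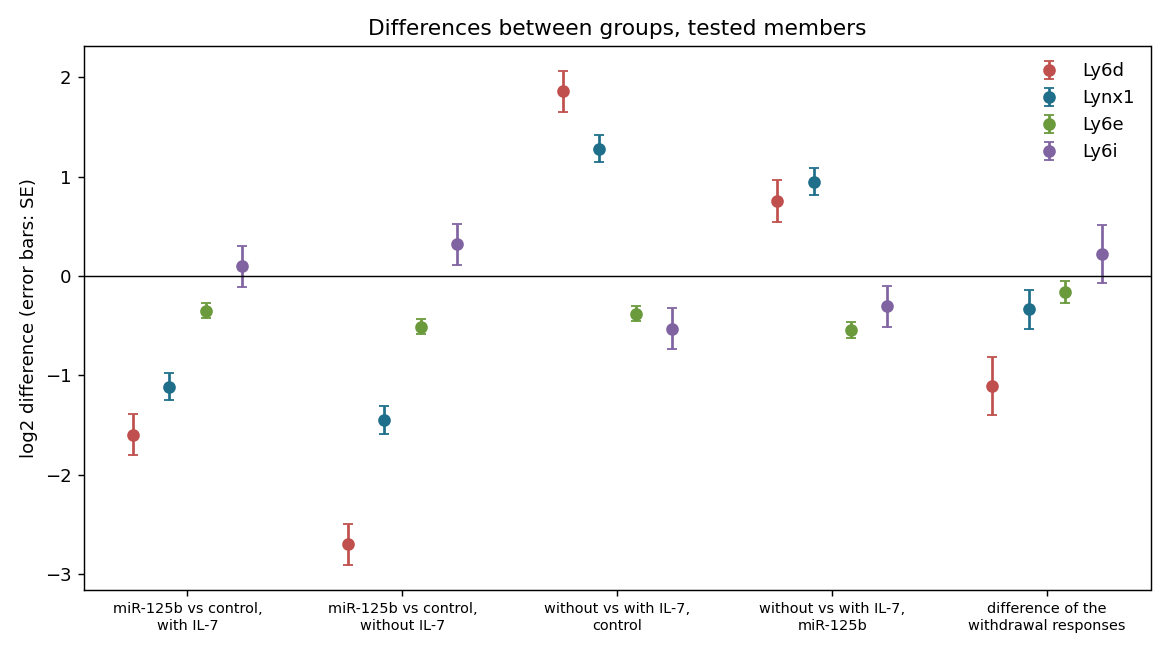
Log2 differences of the 4 tested members in the 5 comparisons, with SE bars from the pooled and moderated spread. Ly6d and Lynx1 lie below 0 in both comparisons of miR-125b with control and above 0 in both withdrawal comparisons, Ly6d is the member farthest from 0 in the first 3, and Ly6i lies within -0.53 and 0.32 throughout.

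The wider Ly6/uPAR superfamily, which shares the three-finger fold, was taken from a list of 48 genes. Of these, 42 had a probe, 17 were tested, and 17 were well above background on 0 arrays at every probe. The tested genes were Ly6d, Lynx1, Ly6e, Ly6i, Ly6h, Ly6m, Ly6g5b, Ly6g6c, Slurp1, Slurp2, Gml2, Gpihbp1, Lypd2, Lypd5, Lypd6, Tex101 and Spaca4. Among the 16 other than Ly6d, 0 rose and 1 fell in miR-125b cells with IL-7, where 2.58% of all genes were called, with a median log2 difference of -0.12 against -0.04 over all genes.

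Without IL-7, 0 of the 16 rose and 3 fell in miR-125b cells, beside 6.43% of all genes, and the median was 0.07 against -0.01 over all genes. The third gene beside Lynx1 and Ly6e was Ly6m, whose probe lies 116 kb from that of Ly6d. Ly6m was at -4.00 to -3.62 in control cells and at -4.85 to -4.57 in miR-125b cells without IL-7. Its log2 difference was -0.89 (SE 0.15, adjusted p = 0.0331) without IL-7 and -0.67 (adjusted p = 0.0854) with IL-7. The call for Ly6m was lost with median scaling (-0.71, adjusted p = 0.0904) and with quantile normalization (-0.78, adjusted p = 0.0668).

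On removal of IL-7, 3 of the 16 were called higher and 6 lower in control cells, and 3 higher and 4 lower in miR-125b cells, beside 54.2% and 52.4% of all genes. The lower calls include Ly6e, for which no direction is given because it depends on the scaling. The higher calls include 2 genes in control cells, Tex101 and Ly6h, and 1 in miR-125b cells, Tex101, whose probes passed the filter only through arrays without IL-7. Such a gene had to be higher there, so its values are a description with no test. Slurp2, a secreted family member whose probe lies 19.3 kb from that of Ly6d, fell in control cells (log2 difference -1.82, adjusted p = 0.00159) and in miR-125b cells (-1.58, adjusted p = 0.00236). It thus moved against its neighbour Lynx1, and it showed no call between vectors (0.09 without IL-7, adjusted p = 0.813). The 2 genes are neighbours, and an overlap of their transcripts was not tested.

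Tex101, a germ-cell partner of Ly6k, was not well above background on any array with IL-7. Without IL-7 its level was at least 4.05-fold higher in control cells and at least 4.12-fold higher in miR-125b cells. A bound sets the brighter group's mean against, on each dim array, the higher of the probe's own level and the lowest level of any probe well above background. Ly6h was at least 2.02-fold higher without IL-7 in control cells. Lypd5 fell in control cells (-0.81, adjusted p = 0.00144) and in miR-125b cells (-0.52, adjusted p = 0.00323).

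Ly6g6c fell in control cells (-0.53, adjusted p = 0.0079) and in miR-125b cells (-0.32, adjusted p = 0.0455, lost with normexp at 0.0635). Spaca4 fell in control cells, at -0.85 (adjusted p = 0.00683). In miR-125b cells its value was -0.42 (adjusted p = 0.0693), and the test of the difference in response did not pass (adjusted p = 0.926). The brighter Gml2 probe, which was the one tested, was at -0.82 (adjusted p = 0.0469) in control cells and -0.72 (adjusted p = 0.0716) in miR-125b cells. A second Gml2 probe, well above background on 7 of 8 arrays, went the other way, at 1.36 and 2.18, so no direction is given for Gml2. Lypd6 rose in miR-125b cells by 1.69 (adjusted p = 0.0334), a call lost with quantile normalization (1.49, adjusted p = 0.063). Its 2 miR-125b arrays without IL-7 lay far apart, at -3.54 and -1.85.

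**Figure D4:**
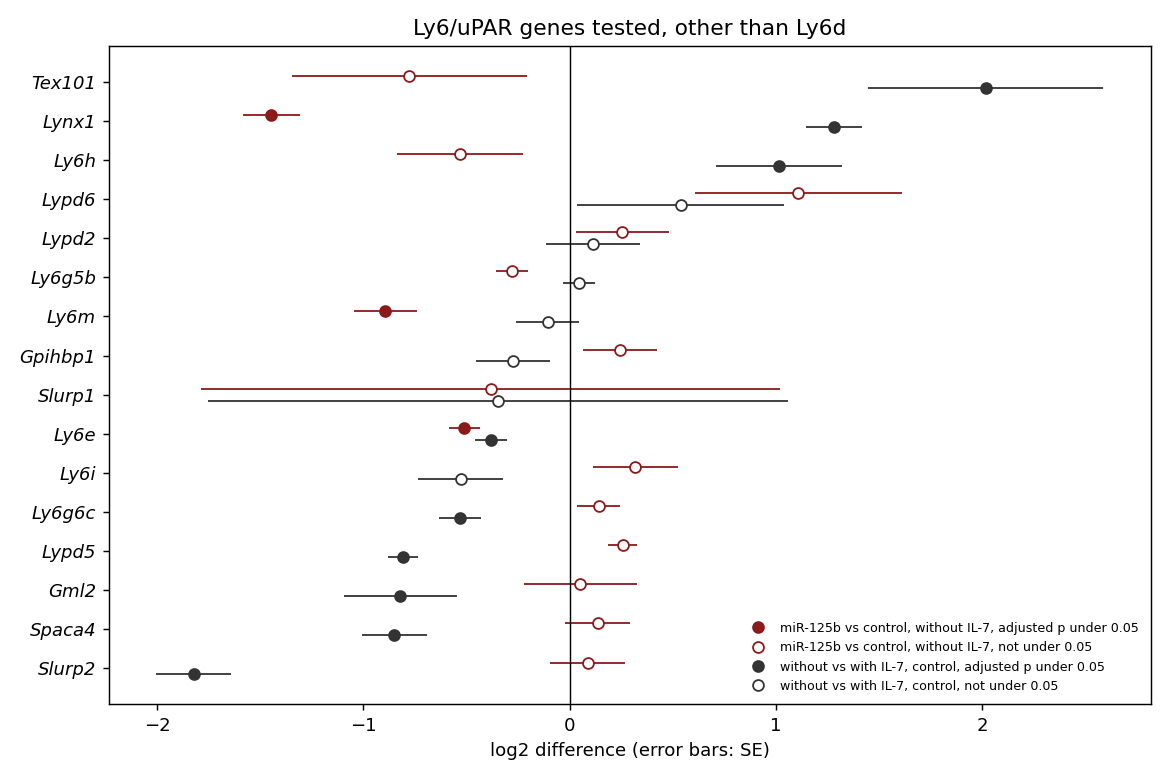
Log2 differences of the 16 tested Ly6/uPAR genes other than Ly6d, with SE bars, for miR-125b against control without IL-7 (red) and for removal of IL-7 in control cells (dark grey). Filled points passed an adjusted p under 0.05, and in the red comparison these were Lynx1, Ly6m and Ly6e, all below 0. The grey points of Tex101 and Ly6h are fitted values of probes that passed the filter only through arrays without IL-7. They are a description, and their fill is not a test result.

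Genes that lie near Ly6d were then compared. By the mm9 positions in the files, 23 other named genes had a probe within 500 kb of the Ly6d probe, and 12 of them were tested. In miR-125b cells, 0 rose and 1 fell with IL-7, and 0 rose and 4 fell without IL-7, beside 2.58% and 6.43% of all genes. The 4 were Lynx1, Ly6e, Ly6m and Arc, and the medians over the 12 genes were -0.19 with IL-7 and -0.20 without, against -0.04 and -0.01 over all genes.

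Arc, an immediate-early gene best known from neurons and not a Ly6 gene, has its probe about 93 kb from that of Ly6d. Its log2 difference between vectors was -1.13 (adjusted p = 0.114) with IL-7 and -1.91 (adjusted p = 0.0278) without. It rose on removal of IL-7, by 2.39 in control cells (adjusted p = 0.0022) and by 1.61 in miR-125b cells (adjusted p = 0.00732). Between Arc and Lynx1 lie the probes of Jrk, Them6, Slurp1, Lypd2 and Slurp2, and none of these 5 was called between vectors in either condition. Of the 5, Them6 had the lowest values, -0.48 with IL-7 (adjusted p = 0.367) and -0.81 without (adjusted p = 0.129), and Slurp1 was at 0.11 and -0.38. On the other side of Ly6d, the tested Gml2 probe was not called, at -0.05 with IL-7 and 0.05 without, while the second Gml2 probe was at -1.38 and -0.56. Adgrb1, the farthest on the Arc side, had differences of -0.22 and -0.02 and was not called.

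**Figure D5:**
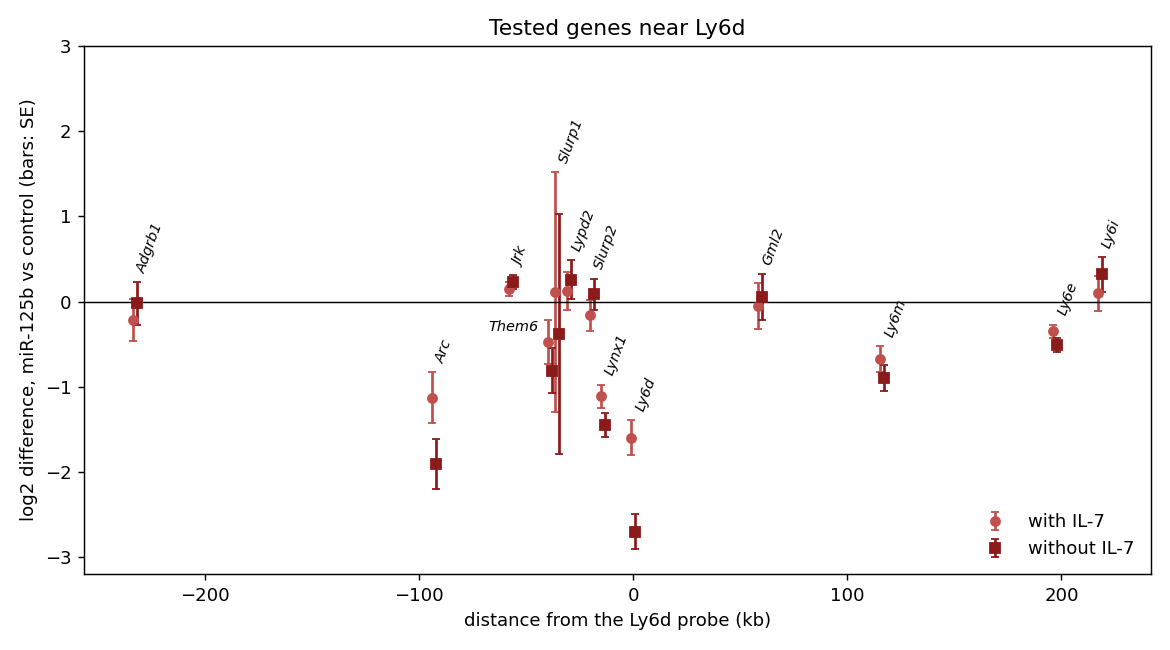
Log2 difference between miR-125b and control cells, with SE bars, for the 13 tested genes within 500 kb of the Ly6d probe, Ly6d included, against the distance of their probes from it in kb. Ly6d (-1.60 and -2.70), Lynx1 (-1.11 and -1.45) and Arc (-1.13 and -1.91) lie lowest, while between Lynx1 and Arc lie Slurp2, Lypd2 and Jrk, close to 0, Slurp1 (0.11 and -0.38) and Them6 (-0.48 and -0.81).

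The genes whose pattern over the 8 arrays was most like that of Ly6d were sought among 11885 named genes well above background on every array. The measure was Pearson's r with the Ly6d probe, a description over 8 arrays that share 4 groups and 2 slides. All values of r used the scaling defined above for levels, and the ranking was not repeated with the other scalings. The highest values were those of Zfp943 (0.990), Khnyn (0.990), Aldoc (0.990), Irf1 (0.985) and Enpep (0.983). Enpep encodes aminopeptidase A, the BP-1 antigen of early B-lineage cells, and Irf1 an interferon-induced transcription factor. With median scaling the withdrawal difference of Irf1 went from 0.53 to 0.20 in control cells and from 0.23 to -0.02 in miR-125b cells. Ly6d stayed above 0 with that scaling, at 1.52 and 0.51. The likeness of Irf1 to Ly6d may therefore depend on the scaling, and this was not tested for the other genes named.

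Enpep had log2 differences between vectors of -0.72 with IL-7 and -0.89 without, and of 0.66 and 0.49 for removal of IL-7 in control and miR-125b cells. Among the lowest values of r were those of Sfxn2 (-0.991), Maf1 (-0.989), Pacsin3 (-0.988) and Dag1 (-0.983). Lynx1 was at rank 28 with r = 0.971, and Ly6e at rank 4190 with r = 0.225. After the mean of each IL-7 condition was subtracted, r was 0.984 for Ly6e, 0.981 for Lynx1 and 0.981 for Enpep. Their ranks in that form were 43, 71 and 75 of 11885, so many other genes followed Ly6d as closely. In that form the highest were Arl2bp, Tbc1d20, Setdb2, Uhmk1 and Tmem63b, and 373 genes, 3.14% of those compared, had an r above 0.9 in the first form.

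GPI anchors are built and attached by the Pig and Pgap enzymes, and 27 of the 30 listed genes were tested. In miR-125b cells 0 rose and 1 fell with IL-7, and 1 rose and 2 fell without, beside 2.58% and 6.43% of all genes. Pgap3, which remodels the lipid of the anchor, fell in both, at -0.73 (adjusted p = 0.0222) with IL-7, lost with median scaling, and -0.89 (adjusted p = 0.00825) without. Without IL-7, Pigm fell (-0.61, adjusted p = 0.0302) and Pigp rose (0.50, adjusted p = 0.0343), and both calls were lost with median scaling. The medians were 0.0042 with IL-7 and 0.02 without, against -0.04 and -0.01 over all genes.

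On removal of IL-7, 4 GPI genes rose and 5 fell in control cells, and 3 rose and 7 fell in miR-125b cells, beside 54.2% and 52.4% of all genes. Pgap1, which trims the anchor after attachment, rose by 2.19 (adjusted p = 0.000477) in control and by 1.94 (adjusted p = 0.000745) in miR-125b cells. Pigt, a subunit of the transamidase that attaches the anchor, fell in both, at -1.36 (adjusted p = 0.00115) and -1.46 (adjusted p = 0.00121). With median scaling the split was 1 higher and 16 lower in control cells and 2 and 11 in miR-125b cells. With quantile normalization it was 5 and 4 in control cells and 3 and 2 in miR-125b cells.

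B-lineage genes were measured as the setting of a B-lineage marker, and all 25 on the list were tested. In miR-125b cells 0 rose and 2 fell with IL-7, Il7r (-0.66, adjusted p = 0.0365) and Pou2af1 (-0.37, adjusted p = 0.0489). Without IL-7, 0 rose and 1 fell, Il7r again (-0.58, adjusted p = 0.0302). Of all genes tested, 2.58% were called with IL-7 and 6.43% without. The medians of -0.08 in both conditions lay beside -0.04 and -0.01 over all genes. The Pou2af1 call was lost under every other scaling, and the Il7r call with IL-7 under all of them but normexp. With median scaling Il7r was called in neither condition.

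On removal of IL-7, 8 B-lineage genes rose and 6 fell in control cells, and 7 rose and 6 fell in miR-125b cells, beside 54.2% and 52.4% of all genes. This split followed the scaling. With quantile normalization it was 19 higher and 0 lower in control cells and 18 and 0 in miR-125b cells, and with median scaling it was 4 and 11 and 4 and 8. Rag1 and Rag2, the recombinase genes of differentiating pre-B cells, rose by 2.89 (adjusted p = 0.00155) and 1.98 (adjusted p = 0.00246) in control cells. In miR-125b cells they rose by 2.20 (adjusted p = 0.0028) and 1.33 (adjusted p = 0.00874). Bach2 and Pax5 rose by 1.26 and 0.79 in control cells and by 1.33 and 0.87 in miR-125b cells.

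Interferon response genes were listed because Ly6a and Ly6e are interferon-inducible, and 26 of 32 were tested. In miR-125b cells 0 rose and 1 fell with IL-7, and 1 rose and 6 fell without, beside 2.58% and 6.43% of all genes. The median without IL-7 was -0.19 against -0.01 over all genes. Zbp1, a sensor of nucleic acids, fell in both, at -1.75 (adjusted p = 0.025) with IL-7 and -1.76 (adjusted p = 0.0126) without. Without IL-7, Irf7 (-1.10, adjusted p = 0.0427) and Irf1 (-0.66, adjusted p = 0.0115) fell and Bst2 (0.78, adjusted p = 0.0342) rose. With median scaling the split without IL-7 was 1 higher and 1 lower.

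On removal of IL-7, 11 interferon genes were called higher and 4 lower in control cells, and 10 higher and 4 lower in miR-125b cells, beside 54.2% and 52.4% of all genes. Of these, 2 of the higher calls in each vector, Oasl1 and Mx2, and 1 of the lower calls in miR-125b cells, Oas1a, passed the filter only through the condition where they are brighter and are given with no test. Oasl1, not well above background on any array with IL-7, was at least 4.95-fold higher without it in control cells and at least 3.96-fold higher in miR-125b cells. Mx2 was at least 2.70-fold and at least 3.32-fold higher, but only 1 of the 2 control arrays without IL-7 was well above background. Bst2 fell in control cells (-1.28, adjusted p = 0.00166) and in miR-125b cells (-1.14, adjusted p = 0.00247). In miR-125b cells Ifih1 fell (-1.38, adjusted p = 0.00323), and Oas1a was at least 2.37-fold lower. Median scaling gave 5 higher and 6 lower in control cells and 3 and 5 in miR-125b cells.

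Markers of other blood cells were counted because several Ly6 genes are used to sort them. Between vectors, 0 of 8 tested myeloid, 0 of 6 plasma cell, 0 of 2 erythroid and 0 of 4 stromal and endothelial markers were called in either condition. Of all genes tested, 2.58% were called with IL-7 and 6.43% without, so 0 calls in lists this short are near those shares. Without IL-7, however, 1 erythroid marker was called higher under all 4 other scalings and 1 plasma cell marker with normexp. Of 8 tested plasmacytoid dendritic cell markers, 1 was called, Bst2 without IL-7, and with normexp 1 was also called higher with IL-7. Of 6 tested T and NK cell markers, Zap70 fell with IL-7 (-0.79, adjusted p = 0.0304) and without (-0.90, adjusted p = 0.013), and Klrb1c fell without (-0.59, adjusted p = 0.0302). Median scaling ended the Zap70 call with IL-7 and the Klrb1c call.

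The summed level of the 11 T and NK markers on the arrays, in percent of the 75th percentile, was 4755 to 4772 in control and 2804 to 3028 in miR-125b cells with IL-7. Without IL-7 it was 4202 to 4588 and 2463 to 2721. Between vectors the sum was lower in miR-125b cells, as was Ly6d. On removal of IL-7 the sum was lower by the 75th percentile, but it was not computed with the other scalings. No direction is therefore given for the sum there. The part of the T and NK markers in the Ly6d differences was not tested. In each group 5 or 6 of the 11 were well above background on neither array.

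On removal of IL-7 the markers moved one by one. Cd8a was not well above background on any array with IL-7 and passed the filter only through arrays without it, where it was at least 221-fold higher in control cells and at least 243-fold higher in miR-125b cells. Cd8a was the 1 higher call among the 6 tested T and NK markers in each vector, and 2 were called lower, beside the same shares of all genes as below. Of the lower calls, Cd3e fell in both vectors, at -1.44 (adjusted p = 0.0016) and -1.52 (adjusted p = 0.00189). Of the myeloid markers 2 were called higher and 1 lower in control cells, and 2 higher and 0 lower in miR-125b cells, beside 54.2% and 52.4% of all genes. One of the higher calls in each vector, Cd14, passed the filter only through arrays without IL-7, and the other was Fcgr3, up by 1.1 (adjusted p = 0.00947) and by 1.51 (adjusted p = 0.00406). The summed myeloid level was 1184 to 1458 in control cells with IL-7, 1265 to 1300 in miR-125b cells with IL-7, 1396 to 1677 in control cells without and 1620 to 1695 in miR-125b cells without.

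Among plasma cell markers 2 rose and 4 fell in control cells, and 2 rose and 3 fell in miR-125b cells, beside 54.2% and 52.4% of all genes. With quantile normalization the split was 2 higher and 1 lower in both. Irf4 rose by 1.53 (adjusted p = 0.00123) and by 1.40 (adjusted p = 0.00175), and Sdc1, the plasma cell antigen CD138, fell in both (-1.64 each, adjusted p = 0.00636 and 0.007). Plasmacytoid dendritic cell markers split 2 higher and 3 lower in both vectors, and 3 higher and 2 lower in both with quantile normalization or the deposited table. One of the higher calls, Runx2, passed the filter only through arrays without IL-7, as did the stromal and endothelial marker Cdh5 in control cells. Erythroid markers had 1 higher and 0 lower in both, Epor, and stromal and endothelial markers 2 higher and 2 lower in control and 1 and 2 in miR-125b cells. All of these counts stand beside the same 54.2% and 52.4% of all genes. The part of these markers in the values of the Ly6 genes was not tested.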

How the data were processed

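Per the labels' protocols, total RNA was labelled with Cy3 from 100 ng and hybridised to single-colour Agilent arrays. The scanner files hold the intensity of each spot, deposited after background treatment by Agilent Feature Extraction (10.7.1.1 per the submitters' processing notes, 10.7.3.1 in the headers of the arrays with IL-7). A table of processed intensity values was also deposited. Its scale and centring are unstated, its columns have medians of 21.8 over the matched probes, and each tracked log2 scanner signal at r of 0.999 or more. It served as an alternative. Positions are mm9, per the file headers.

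Control spots and spots flagged as outliers were left out, as were 58 probes left without a spot on some array. The remaining spots of a probe were averaged. Log2 processed signal minus the 75th percentile was fitted with limma 3.58.1 in R 4.3.3, with 4 group means over all 8 arrays. The filter kept a probe where some group had it well above background on each of its 2 arrays, and each gene was represented by its brightest kept probe. Names were updated through RefSeq, by accession for 27209 probes, by symbol for 3575 and by an older name for 564, and 24275 kept the file's name. The code was tested on simulated data. Precision is limited by the 2 arrays a group.

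All members, lists and tests were chosen with earlier results of these data known. Named genes are all members, the tested superfamily genes and neighbours, at most 4 called genes of each other list with the largest change, and the 5 most and 5 least correlated genes. A few genes that this rule names are not reported here. Same-numbered arrays did not deviate together (correlations of -0.098 to 0.113), so no block was used in the fit. With a replicate block the vector calls of Lynx1 with IL-7 and of Ly6e without IL-7 were lost. Other settings are given at the end.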

Additional observations from a re-analysis of the deposited data

How the results depend on the processing

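Ly6d kept its direction in all 5 comparisons under every setting that was run for it. With median scaling its withdrawal difference was 1.52 in control cells and 0.51 in miR-125b cells, and with normexp and quantile normalization its difference between vectors with IL-7 was -1.34. With 1 array left out it ran from -1.84 to -1.36 between vectors with IL-7, from 0.51 to 0.99 for withdrawal in miR-125b cells and from -1.35 to -0.86 for the difference of responses. A lone array left in a group was assumed to vary like the others. Relatives called between vectors with IL-7 numbered 0 with median scaling, no filter on dim probes, only the arrays compared or the replicate block, 2 with normexp or a mean-variance trend, and 0 with any 1 array left out. Without IL-7 they numbered 1 with median scaling, no filter, only the arrays compared or the replicate block, and 0 to 2 with 1 array left out. For withdrawal they numbered 1 to 2 with 1 array left out in control cells, the 1 being without control replicate 2 lacking IL-7, and 1 in miR-125b cells with quantile, normexp or deposited values. Ly6e on withdrawal turned to 0.15 (quantile), 0.17 (normexp) and 0.16 (deposited table) in control cells and to 0.0012 (normexp) in miR-125b cells. Ly6i between vectors with IL-7 ran from -0.032 to 0.22 with 1 array left out, turning to -0.022 and -0.032, and its difference of responses ran from -0.019 to 0.46. The replicate block changed no other call among the relatives. Over all genes, calls ran from 0 to 1488 with IL-7 and from 3 to 2725 without. Median scaling moved the share of higher calls from 45.9% to 78.1% without IL-7 and from 37.0% to 16.8% for withdrawal in control cells, and the median of all genes there from -0.13 to -0.46. The cause was not tested.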
